A study of Mus musculus with 12 samples.

Results

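The genes described here are the carbonic anhydrases of mouse spinal cord, and CAR10 in particular. They were taken from the table of all genes by symbol, from a list of 10 members (CAR2, CAR3, CAR4, CAR7, CAR8, CAR10, CAR11, CAR12, CAR13 and CAR14). Of these 10 members, 9 had a value at both sites, among 13647 gene rows above the lesion and 12338 below it, and CAR8 was listed at neither site and was not analysed here. The list was selected on measured values of these same groups, because CAR10 had stood out below the lesion, so the ratio of CAR10 and of the family is given as a description and nothing is read from it. Of the other 6 family names, CAR5B and CAR15 were listed at both sites and are given beside the members, which makes 11 of 16 family genes. CAR1, CAR5A, CAR6 and CAR9 were listed at neither site.

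RNA-seq was done on segments of spinal cord from male mice aged 4 months at day 14 after a contusion at thoracic level 9. All mice carried human ApoE4, and the groups differed in the gene for synaptojanin 1 (synj1), a phosphatase that degrades the membrane lipid PIP2: mice labelled synj1+/+ had intact alleles and mice labelled synj1+/- had an inactive allele. The 4 groups were ApoE4 synj1+/+ above the lesion, ApoE4 synj1+/- above the lesion, ApoE4 synj1+/+ below the lesion and ApoE4 synj1+/- below the lesion, with 3 libraries in each and 12 in all. For each gene and site the authors deposited 1 value per group of 3 libraries, so every level below is the authors' group value with no SD, and the spread between mice could not be computed from it. No test was run here, and the authors' own test was not used. Segments above and below the lesion may come from the same mice, which the labels do not say, so the sites cannot be taken as independent observations. All mice were injured, and the tissue was whole segments, in which fewer cells of a type and less RNA per cell cannot be told apart.

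Levels are given as FPKM, a fragment count scaled to transcript length and library size, after the 1 that the deposited values carry was taken off. The authors scaled library size by upper quartile normalization, so levels and level cuts in FPKM hold on that scale alone. Ratios are log2 ratios of the deposited values (FPKM + 1), with the libraries labelled synj1+/- as numerator and those labelled synj1+/+ as denominator, so that a positive ratio is a higher value under the label synj1+/-. For weakly expressed genes the added 1 draws the ratio towards 0. A gene is counted as higher or lower where its log2 ratio was at least 0.3 or at most -0.3, which is a fold of 1.23. The level of SYNJ1 ran against the labels at both sites. It measured 1904 FPKM under the label synj1+/+ and 2403 FPKM under synj1+/- rostrally, and 1846 and 2592 FPKM caudally, with log2 ratios of 0.34 and 0.49. Per the study's methods, the genotypes of the mice were checked by PCR. The study also measured synj1 mRNA by RT-qPCR just above the lesion in these genotypes, a result not restated here. Whether the labels of the deposited groups are exchanged was not tested, and every direction below holds for the groups as labelled. APOE had log2 ratios of -0.48 above the lesion and 0.24 below it. The mice carried human ApoE4 and reads were aligned to the mouse genome. How far the APOE values count the human transcript is therefore unknown here.

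Carbonic anhydrases are zinc enzymes that convert carbon dioxide and water to bicarbonate and a proton, and they set how fast pH is buffered inside and outside cells. Family members differ in where they work: in the cytosol, in mitochondria or with the catalytic domain outside the cell. In the central nervous system CAR2 is known from oligodendrocytes and other glia, CAR7 from neurons, CAR4 from the surface of capillary endothelium, and CAR14 as a transmembrane enzyme of neurons and glia. CAR8, CAR10 and CAR11 are carbonic anhydrase-related proteins, which lack residues needed to bind the zinc ion and are not active enzymes. CAR10 and CAR11 are secreted or surface proteins of neurons that bind neurexins, the presynaptic adhesion molecules, and CAR8 binds the inositol trisphosphate receptor ITPR1.

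The related protein CAR10 lies on the plus strand at chr11:93098028-93601749 (GRCm38, GENCODE M21), a gene of 503722 bases. CAR11, also on the plus strand, lies at chr7:45699843-45704682 and spans 4840 bases. CAR4 lies on the plus strand at chr11:84957786-84966044. The 250 bases before the RefSeq start sites of these genes are printed because CAR10, CAR11 and CAR4 were the family members with at least 10 FPKM whose log2 ratio below the lesion was 0.3 or more. The windows are from the GRCm38.p6 assembly, RefSeq lists 2 starts for CAR10, and no GENCODE exon lies over the 4 windows shown. Both CAR10 windows lie inside the GENCODE gene, after its start at 93098028, and the bases before that start were not examined. A second RefSeq start of CAR11 is not shown because an exon lies over its window. Capitals mark the GC box GGGCGG and the core of the hypoxia element ACGTG, each on either strand (CCGCCC and CACGT in reverse), and the 2 motifs do not overlap here.
CAR10, first start, chr11:93098116-93098365, plus strand: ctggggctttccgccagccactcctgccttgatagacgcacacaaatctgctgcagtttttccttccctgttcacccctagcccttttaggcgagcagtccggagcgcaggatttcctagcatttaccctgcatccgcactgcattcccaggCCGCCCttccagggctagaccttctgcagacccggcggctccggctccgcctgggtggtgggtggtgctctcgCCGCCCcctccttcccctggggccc
CAR10, second start, chr11:93099040-93099289, plus strand: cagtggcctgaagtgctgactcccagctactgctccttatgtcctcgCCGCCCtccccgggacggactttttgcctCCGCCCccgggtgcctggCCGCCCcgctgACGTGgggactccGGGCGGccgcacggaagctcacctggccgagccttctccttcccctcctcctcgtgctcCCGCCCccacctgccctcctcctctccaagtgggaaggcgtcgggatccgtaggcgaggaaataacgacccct
CAR11, chr7:45699554-45699803, plus strand: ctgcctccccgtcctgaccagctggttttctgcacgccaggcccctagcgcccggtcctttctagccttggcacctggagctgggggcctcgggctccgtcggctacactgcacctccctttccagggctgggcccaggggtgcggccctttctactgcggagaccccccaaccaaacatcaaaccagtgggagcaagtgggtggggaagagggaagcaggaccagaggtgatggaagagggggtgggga
CAR4, chr11:84957504-84957753, plus strand: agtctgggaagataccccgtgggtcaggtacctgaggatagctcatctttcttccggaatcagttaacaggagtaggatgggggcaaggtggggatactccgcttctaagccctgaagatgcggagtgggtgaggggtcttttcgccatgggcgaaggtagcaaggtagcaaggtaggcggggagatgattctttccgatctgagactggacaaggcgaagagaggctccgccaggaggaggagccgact

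The GC box was found 2 times before the first start of CAR10 and 5 times before the second, and not in the windows of CAR11 and CAR4. Of 32851 windows of 250 bases before the starts of all genes, 32.7% held a GC box. The letters ACGTG were found 1 time, before the second start of CAR10, and are held by 16.6% of all windows. The TATA box TATAAA, the CCAAT box CCAAT and the cyclic AMP element TGACGTCA, searched on both strands, were in none of the 4 windows, and 12.4%, 33.8% and 1.55% of all windows hold them. The share of G and C was 64.0% and 68.8% before the CAR10 starts, 65.6% before CAR11 and 56.4% before CAR4, with a median of 52.4% over all windows. These are matches of letters and say nothing about binding. The files hold no measurement of these regions.

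Of the related proteins, CAR10 was the more abundant. Above the lesion it measured 157 FPKM in libraries labelled synj1+/+ and 173 FPKM in those labelled synj1+/-, a log2 ratio of 0.14. Below the lesion its FPKM was 122 and 162, a log2 ratio of 0.41, or 1.33 times as high on the FPKM + 1 scale. Within each site the value under the label synj1+/- exceeded the other, past the threshold below the lesion alone. By its mean level CAR10 ranked 2167 among 13647 genes above the lesion and 1979 among 12338 below it. Below the lesion 4.12% of all genes had a higher log2 ratio than CAR10, and 2.39% of the 2724 genes with a mean level of 100 FPKM or more did. Above the lesion those shares were 18.6% of all genes and 13.4% of 3390 genes. The log2 ratio below minus that above was 0.27 for CAR10, and 13.9% of the genes listed at both sites had a greater difference. The sites were normalized apart, so values are compared within a site and only set side by side between sites.

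CAR11, the relative of CAR10 that shares its neurexin binding, had a ratio above 0 at both sites and reached the threshold below the lesion alone. Above the lesion it measured 84.7 and 101 FPKM in libraries labelled synj1+/+ and synj1+/-, a log2 ratio of 0.25. Below the lesion its FPKM was 74.4 and 92.1, a log2 ratio of 0.30. CAR11 lay just past the threshold of 0.3 below the lesion and at 0.29 once the median of all genes was subtracted, whereas CAR3 with 0.29 lay just short of it. Its difference between the sites was 0.06, which 43.5% of genes exceeded. Summed over CAR10 and CAR11, the FPKM of the related proteins was 242 and 274 above the lesion and 196 and 254 below it, with log2 ratios of the sums of 0.18 and 0.37.

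**Figure D1:**
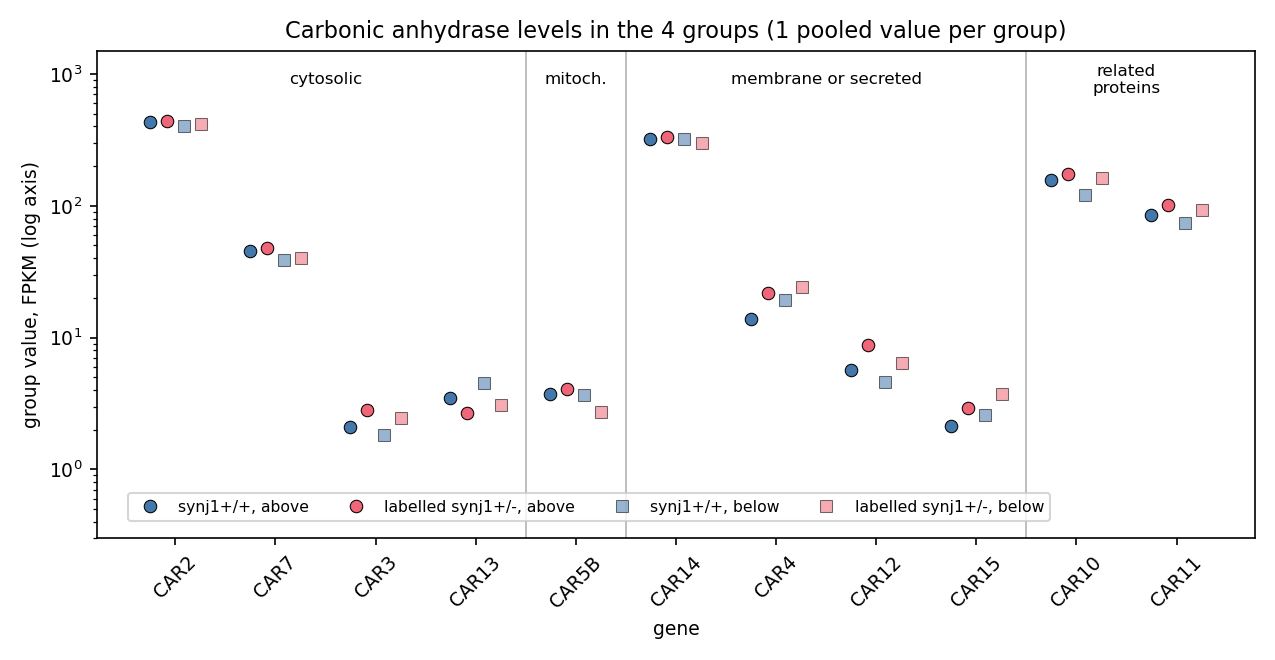
Group values in FPKM (log axis) of the 11 listed carbonic anhydrases, ordered by where the protein works, with 1 point for each of the 4 groups (circles above the lesion, squares below it). CAR10 stands at 157 and 173 FPKM above the lesion and at 122 and 162 FPKM below it, under the labels synj1+/+ and synj1+/-, and CAR2 and CAR14 are the most abundant genes of each group.

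The cytosolic enzymes were led by CAR2, the most abundant family member in all 4 groups. Its FPKM was 432 and 436 above the lesion and 400.1 and 420.5 below it, in the groups labelled synj1+/+ and synj1+/-, with log2 ratios of 0.01 and 0.07. CAR7, a neuronal enzyme linked to bicarbonate supply for GABA-A receptor currents, had 45.4 and 48.2 FPKM above and 38.7 and 39.9 FPKM below, with log2 ratios of 0.09 and 0.04. Neither gene reached a log2 ratio of 0.1 at a site. The other cytosolic members were low. CAR3, best known from muscle and fat, had 2.09 and 2.84 FPKM above and 1.84 and 2.47 FPKM below, with log2 ratios of 0.31 and 0.29. CAR13 had 3.47 and 2.68 FPKM above and 4.53 and 3.09 FPKM below, with log2 ratios of -0.28 and -0.43, and was the single member with a lower value at both sites. The mitochondrial enzyme CAR5B had 3.76 and 4.09 FPKM above and 3.70 and 2.71 FPKM below, with log2 ratios of 0.10 and -0.34. CAR13, CAR3 and CAR2 are neighbours on chromosome 3. With CAR1 they form a cluster of 4 genes over 259 kb, and the gap between CAR3 (chr3:14863512-14872523) and CAR2 (chr3:14886273-14900770) is 13.7 kb. Below the lesion, the ratios of these neighbours were -0.43 for CAR13, 0.29 for CAR3 and 0.07 for CAR2, and CAR13 alone was past the threshold.

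Among the enzymes with an outward-facing catalytic domain, CAR14 was abundant and nearly level between the groups. Its FPKM was 323 and 331 above the lesion and 323 and 301 below it, with log2 ratios of 0.03 and -0.10. CAR4, which is anchored to the membrane by a lipid, had 13.9 FPKM under the label synj1+/+ and 21.7 FPKM under synj1+/- rostrally, and 19.2 and 24.3 FPKM caudally. Its log2 ratio of 0.60 above the lesion was the largest of the family, and 0.755% of all genes there had a higher one. Below the lesion its log2 ratio was 0.33, with a difference between the sites of -0.27. CAR12, a transmembrane enzyme at chr9:66713686-66766845, had 5.72 and 8.77 FPKM above and 4.63 and 6.39 FPKM below, with log2 ratios of 0.54 and 0.39. CAR15, a membrane-anchored enzyme of mice at chr16:17835276-17838364, had 2.15 and 2.95 FPKM above and 2.61 and 3.75 FPKM below, with log2 ratios of 0.33 and 0.40. CAR4, CAR12 and CAR15 were thus higher under the label synj1+/- at both sites, and the abundant CAR14 was not. With 10 added to each value, CAR4 stayed past the threshold above the lesion alone (0.39, and 0.23 below), while CAR12 (0.24 and 0.15) and CAR15 (0.08 and 0.12) were past it at neither site. With each group divided by its sum, CAR4 below the lesion was at 0.2996. Because CAR14 gave most of the transcripts of this class, the summed FPKM moved little, from 345 to 364 above and from 349.6 to 335.6 below.

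The order of the family by FPKM was alike in the 4 groups. CAR2 was followed by CAR14, CAR10, CAR11, CAR7, CAR4 and CAR12 in ranks 1 to 7 of every group, and CAR5B, CAR13, CAR15 and CAR3 exchanged places 8 to 11 at levels between 1.84 and 4.53 FPKM. Without a spread between libraries it cannot be said which neighbours in this order differed, and the last 4 genes lay within a few FPKM of each other. CAR2 and CAR14 together gave 70.4% of the family's summed FPKM under the label synj1+/+ and 67.7% under synj1+/- rostral to the lesion, and 72.7% and 68.2% caudal to it. CAR10 gave 14.6% and 15.3% above and 12.2% and 15.3% below. The summed FPKM of all 11 genes was 1074 and 1132 above and 995 and 1058 below.

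Past the threshold, 3 of 9 members above the lesion (CAR4, CAR12 and CAR3) were higher under the label synj1+/- and 0 were lower, where 4.87% of all genes were higher and 8.54% lower. Below the lesion 4 of 9 members were higher (CAR10, CAR11, CAR12 and CAR4) and 1 was lower (CAR13), where 9.48% of all genes were higher and 12.7% lower. The median log2 ratio of the 9 members was 0.14 above and 0.29 below, and that of all genes was -0.00388 and 0.0144. Since the members were selected with these ratios known, the counts are a description. Among genes listed at both sites, 1.23% were higher past the threshold at both and 3.73% lower at both, and of the 11 family genes CAR4, CAR12 and CAR15 were higher at both.

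Ratios of low genes scatter more, so the background also depends on the level. Among genes with a mean level under 10 FPKM, which holds CAR3, CAR12, CAR13, CAR15 and CAR5B, 9.64% were higher and 15.1% lower above the lesion, and 13.2% and 20.2% below it. Between 10 and 100 FPKM, where CAR4, CAR7 and CAR11 lie, 4.54% were higher and 7.99% lower above, and 8.45% and 12.2% below. At 100 FPKM or more, where CAR2, CAR14 and CAR10 lie, 1.47% were higher and 4.10% lower above, and 8.19% and 6.17% below. Among genes of its own level, 0.600% had a higher log2 ratio than CAR4 above the lesion and 6.79% below it. For CAR12 those shares were 2.60% and 7.88%, and for CAR11 they were 7.49% and 8.21%.

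**Figure D2:**
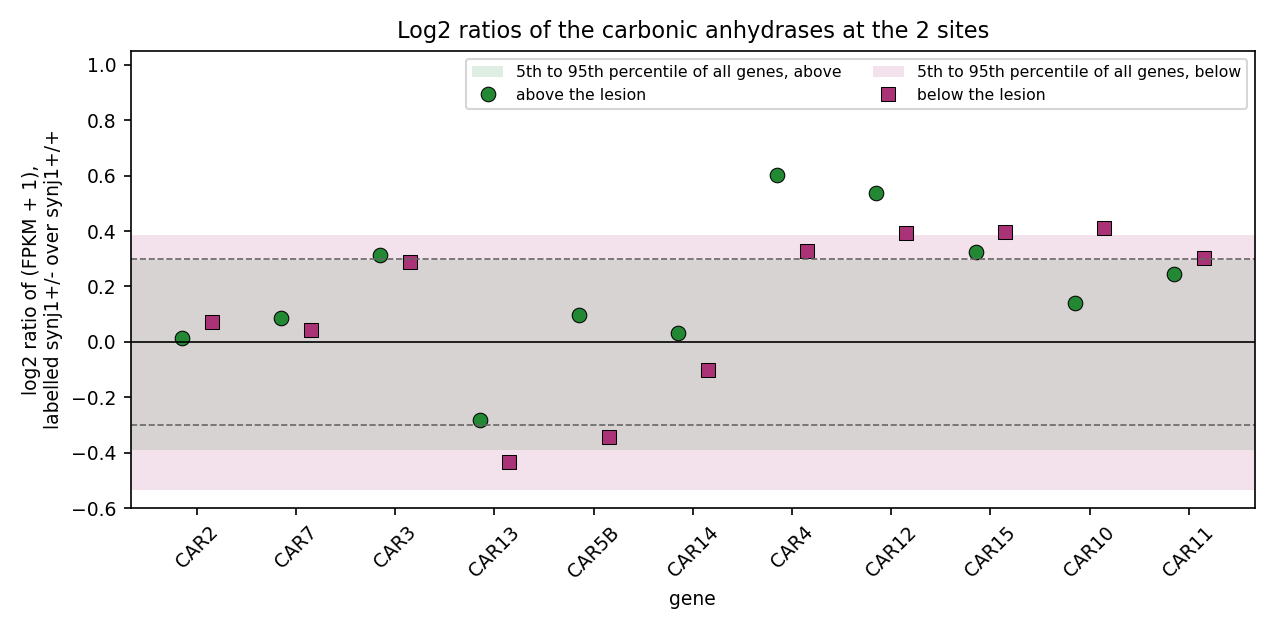
Log2 ratios of (FPKM + 1), label synj1+/- over label synj1+/+, of the 11 listed carbonic anhydrases above (circles) and below (squares) the lesion, with shaded bands from the 5th to the 95th percentile of all genes at each site and dashed lines at 0.3 and -0.3. CAR10 is at 0.14 above and 0.41 below, CAR4 at 0.60 and 0.33, and CAR13 at -0.28 and -0.43.

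**Figure D3:**
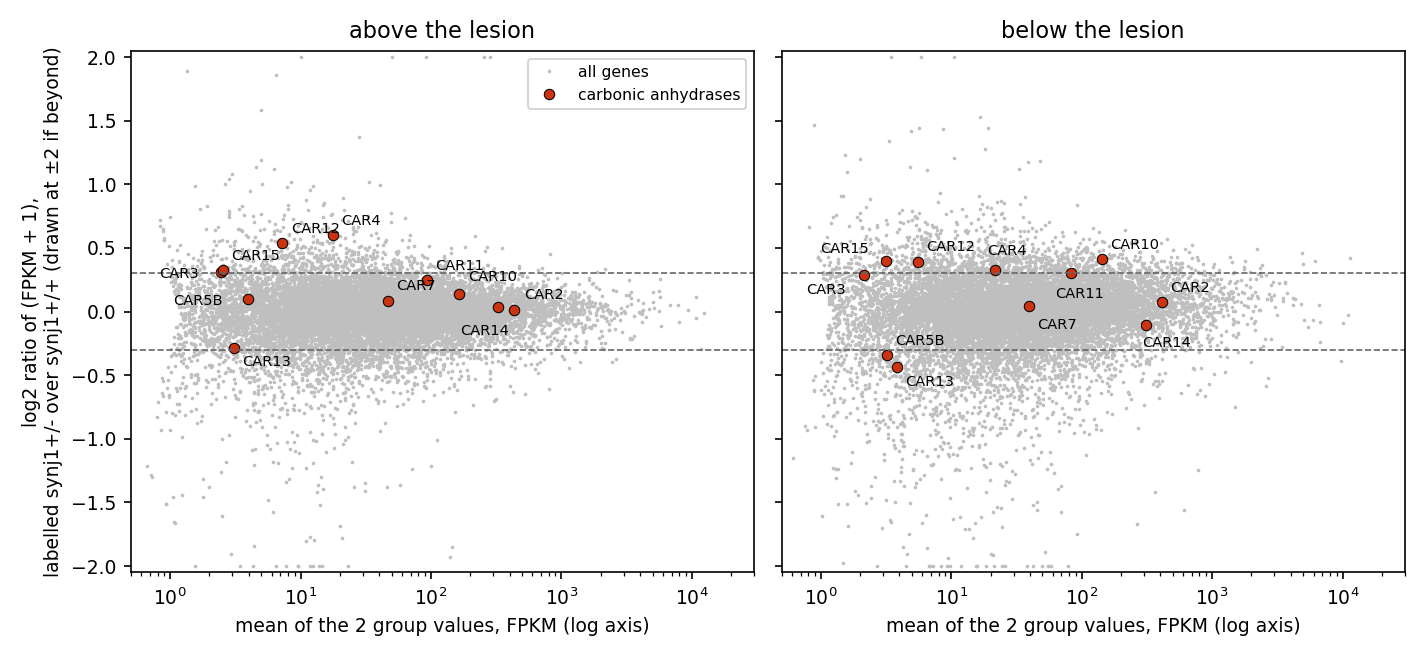
Log2 ratio of (FPKM + 1) against the mean of both group values in FPKM (log axis) for all genes (grey) and the carbonic anhydrases (red), above and below the lesion, with ratios beyond 2 in size drawn at the edge and dashed lines at 0.3 and -0.3. CAR10 lies at a mean of 142 FPKM below the lesion, where 8.19% of genes at 100 FPKM or more are above the upper line.

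The genes nearest to CAR10 in their pair of log2 ratios were sought among 9015 other genes with at least 10 FPKM in all 4 groups, by the Euclidean distance of the ratios above and below. The 5 nearest were ANKRD29, ECSIT, SCG5, ACAD9 and ATL1, at distances between 0.0054 and 0.0138 on the log2 scale. ANKRD29 had log2 ratios of 0.15 and 0.41, and SCG5, a chaperone of neuroendocrine secretory granules, had 0.13 and 0.41. ATL1, which shapes the tubular endoplasmic reticulum of axons, had 0.13 and 0.42. ACAD9 and ECSIT, both assembly factors of mitochondrial complex I, had 0.13 and 0.41, and 0.14 and 0.40. The likeness rests on 2 ratios per gene, so it is a description of position in this plane.

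The neurexins and their other ligands were listed for 12 of 13 names above the lesion and 8 of 13 below it. Above the lesion none was past the threshold in either direction and the median log2 ratio was -0.02. Below the lesion all 8 listed genes had a ratio above 0, with 2 past the threshold, none lower and a median of 0.18. Of all genes below the lesion, 52.8% had a ratio above 0 and 9.48% were higher past the threshold, with a median of 0.0144. The 2 were LRRTM4, a postsynaptic neurexin ligand, with 41.3 and 60.4 FPKM and a log2 ratio of 0.54, and LRRTM3, with 8.45 and 10.8 FPKM and 0.32. NRXN3, the most abundant listed below the lesion, had 1527 and 1812 FPKM there, a log2 ratio of 0.25. Above the lesion NRXN3 had 1672 and 1656 FPKM, a log2 ratio of -0.01. NLGN1, NLGN2, LRRTM1 and CBLN1 were not listed below. The inositol trisphosphate receptors, partners of CAR8, had 2 listed genes above and 3 below, none past the threshold, with median log2 ratios of -0.25 and -0.15. ITPR1, the most abundant, had 99.4 and 82.7 FPKM above and 110 and 98.9 FPKM below.

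Transporters carry the bicarbonate and protons that the enzymes make. Of all genes, 4.87% were higher and 8.54% lower past the threshold above the lesion, and 9.48% and 12.7% below it, beside which the counts of these short lists are given. Of the bicarbonate transporters, 7 of 11 were listed at each site, with 1 higher and 1 lower past the threshold at each and median log2 ratios of -0.05 above and 0.01 below. SLC4A4, the sodium bicarbonate cotransporter of astrocytes and the most abundant, had 665 and 583 FPKM above and 679 and 580.4 FPKM below, with log2 ratios of -0.19 and -0.23. SLC4A8 was lower above the lesion (log2 ratio -0.49) and SLC26A6 higher there (0.38). Below the lesion SLC26A6 was lower (-0.31) and SLC4A9 higher (0.33). Of the proton and lactate transporters, 6 of 8 were listed at each site, with medians of -0.02 and -0.08. The lactate exporter SLC16A3 was lower at both sites, with 33.1 and 25.6 FPKM above and 31.8 and 23.0 FPKM below, and log2 ratios of -0.36 and -0.45. BSG, the most abundant of the list and a chaperone of lactate transporters, had log2 ratios of 0.10 and -0.10. The chloride cotransporters had 6 of 7 listed at each site, medians of 0.06 and -0.06, and none past the threshold above. Below the lesion SLC12A5, the neuronal chloride exporter, was higher, with 427 and 539 FPKM and a log2 ratio of 0.34. SLC12A3 (-0.68) and SLC12A7 (-0.57) were lower there.

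Markers of the cell types in the segments also differed between the groups, and their part in the carbonic anhydrase values was not tested. Neuron markers were listed for 12 of 12 genes above the lesion, none past the threshold, with a median log2 ratio of 0.09 and a summed FPKM of 10926 and 12297. Of these 12, 8 had a ratio above 0, as did 49.0% of all genes there. Below the lesion 10 of 12 were listed, all 10 with a ratio above 0 and 4 past the threshold, beside 52.8% and 9.48% of all genes, with a median of 0.22 and a summed FPKM of 8941 and 11267. SYT1, a synaptic vesicle calcium sensor, had 331 and 480.0 FPKM there (log2 ratio 0.54), SLC32A1, the vesicular GABA transporter, had 0.45, and SNAP25, the most abundant, had 5271 and 6928 FPKM (0.39). The smallest ratios of the list were those of TUBB3 (0.11) and STMN2 (0.13). CAR10 with 0.41 below the lesion lay within the range of the neuron markers, as did CAR11 with 0.30. The neuronal enzyme CAR7 with 0.04 lay under all 10 of them. Above the lesion CAR7 (0.09), CAR10 (0.14) and CAR11 (0.25) all lay within the marker range, from -0.11 (TUBB3) to 0.26 (RBFOX3).

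Oligodendrocyte markers had 8 of 12 listed above and 7 of 12 below, none past the threshold, with medians of -0.07 and 0.03 and a summed FPKM of 12855 and 12334 above and 11716 and 11084 below. MOBP, a myelin protein and the most abundant, had log2 ratios of -0.05 and -0.09, and MBP, MAG and CNP were listed at neither site. CAR2 had ratios of 0.01 and 0.07 beside them. Astrocyte markers were listed for all 10 genes at both sites, with medians of -0.15 and -0.14. None was past the threshold above, and below AQP4 (-0.40) and GFAP (-0.39, from 11116 to 8484 FPKM) were lower. Their summed FPKM was 22008 and 18695 above and 20317 and 16605 below. Microglia and macrophage markers were lower past the threshold for 5 of 10 genes above and 6 of 7 listed below, beside 8.54% and 12.7% of all genes, with medians of -0.34 and -0.62 and a summed FPKM of 1981 and 1503 above and 2656 and 1509 below. LYZ2, a lysozyme of macrophages, had log2 ratios of -0.70 and -1.24. CTSS, the most abundant above, had -0.24 there, and TREM2 had -0.59 above and was not listed below.

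Endothelial markers were listed for 9 of 9 genes at both sites, with medians of 0.04 above and -0.21 below. Above the lesion KDR was higher (3.67 and 5.82 FPKM, log2 ratio 0.54), and below it CDH5 (-0.61) and LY6C1 (-0.31), the most abundant, were lower. The summed FPKM of the list was 745 and 678 above and 881 and 754 below. Beside CAR4, the capillary enzyme, with log2 ratios of 0.60 above and 0.33 below, 6 of these 9 markers had a ratio above 0 above the lesion and 2 of 9 below it, where 49.0% and 52.8% of all genes did. Fibroblast markers had the largest differences of the lists below the lesion, with 8 of 8 listed genes lower past the threshold below the lesion and 5 of 8 above, beside 12.7% and 8.54% of all genes, and medians of -2.86 and -0.43. The summed FPKM went from 611 to 102 below and from 82.3 to 63.5 above, with BGN the most abundant (log2 ratios -1.75 and -0.20). The largest differences below were those of MGP (-3.20) and COL3A1 (-3.14).

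Red blood cells hold CAR1 and CAR2, and their markers had ratios above 0 at both sites. Above the lesion all 5 listed of 7 were past the threshold, with a median log2 ratio of 2.17 and a summed FPKM of 248 and 1133, and below it 3 of 5 were, with a median of 0.37 and a sum of 629 and 825. Of all genes 4.87% above and 9.48% below were higher past the threshold. HBA-A1, the most abundant, had 103 and 468 FPKM above and 255 and 329 FPKM below. CAR1 and SLC4A1 were listed at neither site, and CAR2 had a log2 ratio of 0.01 above the lesion, where haemoglobin differed most. Of the adipocyte markers, LPL had a log2 ratio of 0.00299 above, and below it LPL (-0.77) and FABP4 (-1.65) were lower, with the other 4 of 6 names listed at neither site. No skeletal muscle marker of 6 was listed above, and below MYLPF had 3.53 and 5.52 FPKM (0.52) and ACTA1 a log2 ratio of -0.27. CAR3, an enzyme of muscle and fat, was listed at both sites with ratios of 0.31 and 0.29. Of 4 ependymal names 3 were listed, with medians of -0.16 above and 0.49 below. TMEM212 was higher at both sites (0.60 and 1.14), CCDC153 was higher below (0.49), and FOXJ1, the most abundant, had -0.16 and 0.14.

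**Figure D4:**
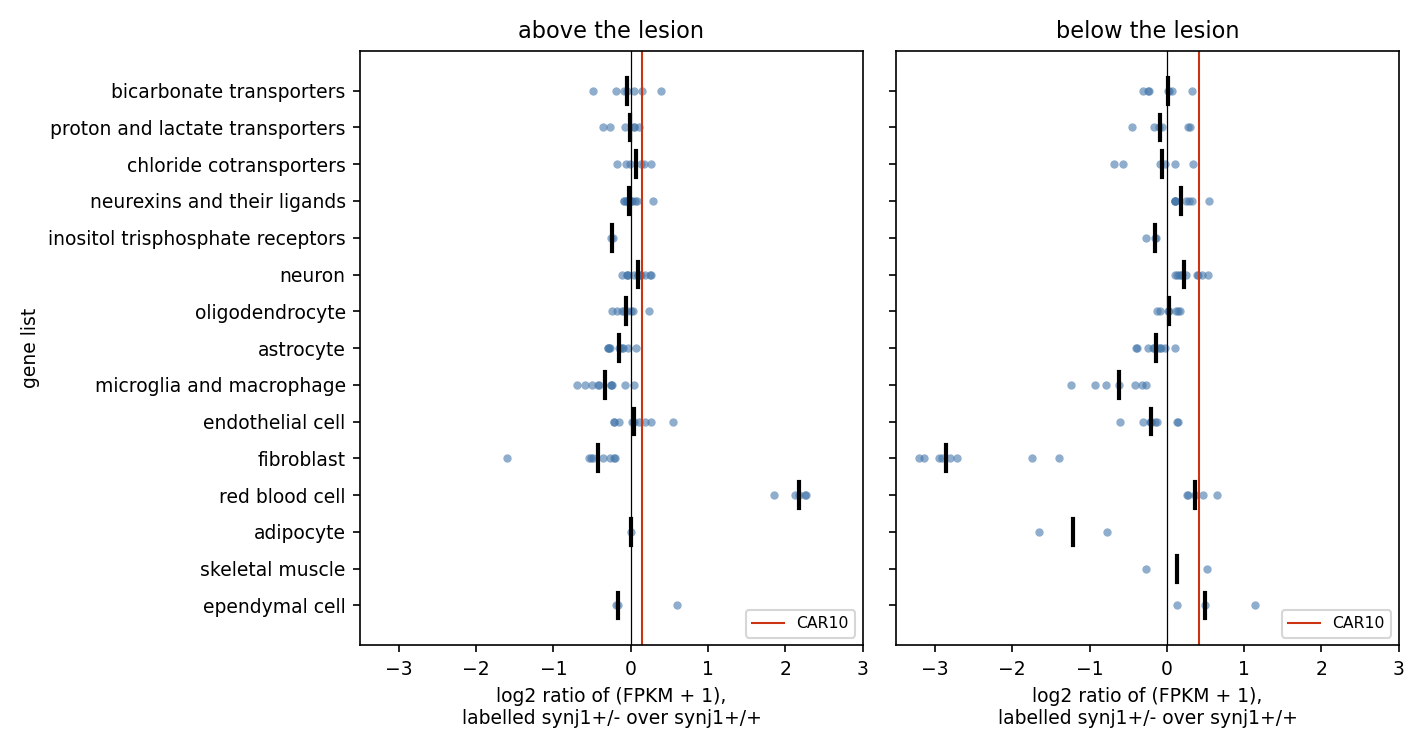
Log2 ratios of (FPKM + 1), label synj1+/- over label synj1+/+, of single genes (points) in the 15 partner and cell type marker lists above and below the lesion, with the median of each list as a bar and CAR10 as a red line. Below the lesion the neuron markers have a median of 0.22 and the fibroblast markers one of -2.86, beside CAR10 at 0.41.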

How the data were processed

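RNA-seq was done on 12 libraries in 4 groups of 3, with genotype and site taken from the labels. Per the submitters' processing notes and the study's methods, reads were reduced at random to the smallest library of each site, aligned with STAR 2.5.4b to GRCm38.p6 and summarized with Cuffdiff 1.3.0 under upper quartile normalization. The annotation is not given in the sources used here. The table the authors deposited holds 1 value per gene, site and group, read as FPKM plus 1 because the lowest value is exactly 1. Its fold changes, log2 fold changes, p-values and q-values, and a shorter list cut on the p-value, are the authors' own comparison and were not used. The study's methods give the number of reads kept per library at each site. There are 0 columns of single samples, so the number of fragments behind a gene's value is unknown here. For the same reason, no error, test or result without a replicate could be computed.

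Log2 ratios, counts past 0.3, and list medians were computed with Python 3.11.15, numpy 2.4.6 and pandas 2.3.3, tested on simulated data, and drawn with matplotlib 3.10.9. The members and gene lists were chosen with earlier results of these data known. Named are all listed family genes, SYNJ1, APOE, the 5 genes nearest to CAR10, and of each list its most abundant gene and those past 0.3 where at most 3, otherwise genes with the largest and smallest ratios. Some genes that the rule names are not reported here. Alternatives were other offsets, scalings, thresholds and a level filter. Gene positions are from GENCODE M21 and promoter windows from RefSeq, matched by symbol.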

Additional observations from a re-analysis of the deposited data

How the results depend on the processing

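The log2 ratio of CAR10 and its difference between the sites moved by less than 0.1 under all 5 alternatives (values less 1, 10 added to each value, the median of all genes or of genes at 10 FPKM or more subtracted, and each group divided by its sum). Of 165 recomputed ratios and site differences of the 11 family genes, 145 moved by less than 0.1, 20 by more, and 0 of those past the threshold changed sign. The 20 all came from taking off or adding to the 1 in the values and concern CAR3, CAR4, CAR5B, CAR12, CAR13 and CAR15, genes with under 25 FPKM, so their ratios are the least certain. The number of members past the threshold depends on these choices. Above the lesion 3 members became 5 at a threshold of 0.2, 1 among genes with at least 10 FPKM in both groups, and 1 with 10 added to each value. Below the lesion 5 members became 0 at a threshold of 0.5, 3 with at least 10 FPKM in both groups, 1 (CAR10) with 10 added, and 3 with each group divided by its sum. Of the list medians, that of the ependymal markers above the lesion went from -0.16 to a mean of 0.09, and that of the fibroblast markers below from -2.86 to -2.61. No paired analysis was possible because the table has no values of single samples, and results without each replicate could not be computed for the same reason.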
